A study of Drosophila melanogaster with 2 samples.

Results

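The spliceosome component genes of Drosophila melanogaster were examined for binding of CHES-1-like, a forkhead-family transcription factor, in whole embryos. The genes are the protein-coding genes of Ensembl release 115 whose symbol starts with SmB, SmD, SmE, SmF, SmG, LSm, Prp and a digit, Sf3, U2af or snRNP-U. This gave 33 of 13968 protein-coding genes. The data are chromatin immunoprecipitation with sequencing (ChIP-seq) from 1 group of embryos aged 0 to 24 h, of pooled sexes, from transgenic flies with a stable copy of CHES-1-like whose C terminus bears GFP, precipitated with an antibody against GFP. Biological replicates 2 and 3 of that line were analysed, each from its own biosample, and there was no second condition. The labels do not say which promoter drives the fusion. Whole embryos mix all tissues and stages of the first day, so strong binding in few cells and weak binding in many cannot be told apart.

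Most introns are removed by the spliceosome, which assembles anew on each intron from small nuclear ribonucleoproteins (snRNPs) named after their RNAs, U1, U2, U4, U5 and U6. The U1 snRNP recognises the 5' splice site, U2AF and the U2 snRNP the 3' splice site and branch point, and the tri-snRNP of U4, U6 and U5 then joins and is remodelled with the Prp19 complex into the catalytic machine. These genes are needed in nearly every cell and are usually counted among housekeeping genes.

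Each peak list holds 1 line per summit with a signal, which is the authors' own value on the scale of its list, so lists were compared by rank (1 is the strongest). The thresholded list holds 4599 summits, the reproducible peaks of both replicates by the authors' irreproducible discovery rate procedure, and equals the 4599 strongest of 30000 entries in the list pooled over both replicates. The replicate lists hold 30000 entries each, with a deposited q-value under 0.05 for 9439 in replicate 2 and 7650 in replicate 3. A gene is called bound below where a thresholded summit lay within 500 bp of one of its transcription start sites (TSSs). No read counts were in the lists used, so the depth is unknown. The tagged gene itself, CHES-1-like, had 3 summits at its TSSs, the best with signal 682 and rank 63. With 2 replicates of 1 group there is no contrast to test, and no p-value was computed.

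Of the 33 spliceosome genes, 15 were bound (45.5%, exact Clopper-Pearson 95% interval 28.1 to 63.6, for counting error over genes only), against 25.9% of all protein-coding genes. The other 18 were not empty: 8 of them had a pooled entry with a q-value under 0.05 in the window, 8 had a weaker entry, and 2 had none. In all, 31 members had some pooled entry at a TSS (93.9%, background 56.6%) and 23 had one with a q-value under 0.05 (69.7%, background 38.6%). Of genes with another gene's TSS within 1000 bp, an arrangement common among the members, 74.6% had some pooled entry and 41.3% were bound. The peaks were of middling strength. The best signal of the 15 bound members ran from 86.3 to 208 with a median of 113, while over all 3624 bound genes the median was 141 and the highest 1958. No member reached a signal of 300, which 410 of all bound genes passed.

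**Figure D1:**
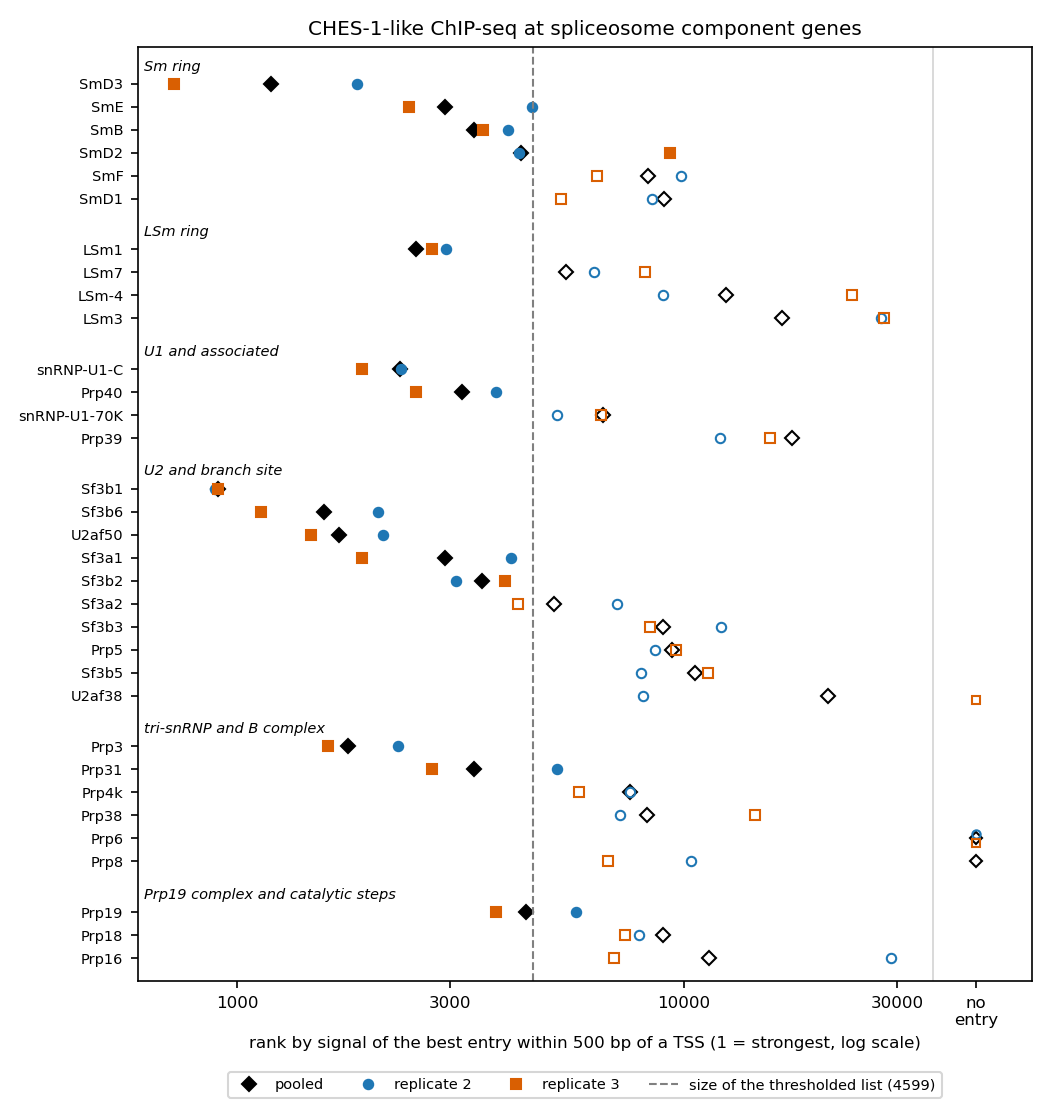
Rank of the best entry within 500 bp of a TSS for each of the 33 spliceosome component genes, grouped by role, in the pooled list (diamonds), replicate 2 (circles) and replicate 3 (squares), on a log axis where 1 is the strongest. Filled symbols mark the 15 bound members and open symbols the other 18, the dashed line stands at the size of the thresholded list, 4599, and symbols at the far right had no entry; the best pooled rank of a member was 905, at Sf3b1.

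The 2 replicates ranked most of the bound members among their best peaks. Replicate 2 had 13 members among its 4599 best entries (39.4%, background 25.2%) and replicate 3 had 15 (45.5%, background 26.2%). In both replicates, 12 were there (36.4%, background 21%). Of genes with another gene's TSS within 1000 bp, 40.2% had an entry among the 4599 best of replicate 2, and 42.2% in replicate 3. The 13 of replicate 2 were all bound, while the 15 of replicate 3 included Sf3a2, which was not bound, and left out SmD2. With a q-value under 0.05, replicate 2 had 26 members (78.8%, background 38.6%) and replicate 3 had 22 (66.7%, background 35.1%). The strongest summit of 14 of the 15 bound members had a counterpart within 100 bp in both replicate lists, a share of 93.3%, against 94.6% of all bound genes. The thresholded list was made from both replicates, so this share is high by construction. The good ranks of the bound members in each replicate follow largely from it too. The exception was Prp19, whose summit in replicate 3 lay 70 bp upstream of the TSS while the thresholded one lay 35 bp downstream. Of the 15, 12 ranked better in replicate 3 than in replicate 2. The same count was not made over all bound genes, so whether it is particular to the members was not tested.

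The counts by role below stand beside 25.9% bound of all genes and 41.3% of genes with another gene's TSS within 1000 bp. The groups are small, and differences between them were not tested. The Sm proteins form the ring around the U1, U2, U4 and U5 RNAs, and 4 of the 6 Sm genes matched by symbol were bound. No gene matched the symbol SmG. SmD3 was the strongest, with signal 184 and pooled rank 1193. It had signal 83.6 and rank 1857 in replicate 2, and signal 102 and rank 722 in replicate 3. It was also one of 2 members with a second thresholded summit, of signal 102, placed 125 bp downstream of the TSS. SmE (signal 113, rank 2911) ranked 4575 in replicate 2 and 2423 in replicate 3, and SmB (signal 102, rank 3393) ranked 4026 and 3553 in the same order. SmD2 (signal 87.3, rank 4322) was the member on which the replicates differed most among the bound Sm genes. Its best entry had rank 4267 in replicate 2, and rank 9307 with a q-value of 0.103 in replicate 3. The latter lay 37 bp upstream of the TSS, while the thresholded summit lay 212 bp upstream. The entry matching that summit in replicate 3 had signal 21.8 and rank 12139. SmD1 and SmF had pooled entries of ranks 9034 and 8321, close to the q-value limit (0.0504 and 0.0317). The ring's genes thus spread over a wide range of ranks.

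The LSm proteins are related to the Sm proteins and build a ring on U6, or, with LSm1, a cytoplasmic ring that promotes mRNA decay. The 1 bound gene of the 4 matched by symbol was LSm1, which belongs to the decay ring and not to the spliceosome. It had signal 123 and rank 2518, with ranks 2937 in replicate 2 and 2730 in replicate 3. LSm7 had a pooled entry of rank 5436 at 11 bp from its TSS. LSm-4 (rank 12429) and LSm3 (rank 16553) had entries whose pooled q-values, 0.187 and 0.375, were above the limit.

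Of the genes for the U1 snRNP and proteins associated with it in yeast, 2 of 4 were bound. snRNP-U1-C, a U1 protein that contacts the 5' splice site, had signal 129 and rank 2316, with ranks 2320 in replicate 2 and 1899 in replicate 3. Its summit was the farthest from a TSS among the bound members, 416 bp upstream. Prp40 had signal 107 and rank 3189, with ranks 3802 and 2518 in replicates 2 and 3. The gene of another core protein, snRNP-U1-70K, fell short of the list with pooled rank 6576. Each replicate gave its best entry a q-value under 0.05, but at different places. The entry lay 137 bp upstream of the TSS in replicate 2 (rank 5188) and 418 bp downstream in replicate 3 (rank 6513). Prp39 had a pooled rank of 17422.

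Genes acting at the branch site held 5 bound of 10, and the strongest peak of any member. Sf3b1, the large scaffold of the SF3b complex in the U2 snRNP, had signal 208 and rank 905. The replicates were close, with signal 120 and rank 894 in replicate 2, and signal 92.7 and rank 908 in replicate 3. Sf3b6, whose protein lies next to the branch point adenosine, followed with signal 158 and rank 1567 (2067 in replicate 2 and 1132 in replicate 3) and had a second summit of signal 109 at 228 bp upstream. U2af50, the subunit of U2AF that reads the polypyrimidine tract, had signal 152 and rank 1688 (2124 in replicate 2 and 1462 in replicate 3). U2af38, the partner that reads the intron's last bases, had a pooled entry of rank 20966 with a q-value of 0.552. In replicate 2 it had an entry of rank 8072 with a q-value of 0.0193, under the limit, and in replicate 3 it had none. The genes of this heterodimer thus stood far apart in the pooled list, and the replicates differed on U2af38.

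Sf3a1 had signal 113 and rank 2917, with ranks 4097 and 1900 in replicates 2 and 3, and Sf3b2 signal 99.7 and rank 3529, with ranks 3088 and 3976. Sf3a2 was the closest member below the list, at pooled rank 5116, and ranked 7072 in replicate 2 and 4239 in replicate 3. Sf3b3 (rank 8980), Prp5, a helicase gene (9374), and Sf3b5 (10584) lay further down.

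The tri-snRNP and B complex genes held 2 bound of 6, both for proteins of the U4/U6 particle. Prp3 had signal 148 and rank 1774, with ranks 2292 and 1601 in replicates 2 and 3. Prp31 had signal 102 and rank 3394, with ranks 5204 in replicate 2 and 2725 in replicate 3. Prp4k, a kinase gene, and Prp38 had pooled ranks of 7553 and 8278. The 2 members without any pooled entry in the window were both in this group: Prp6, which links U5 to U4/U6, had no entry in any of the 4 lists, and Prp8, the protein at the catalytic centre, had entries in the replicate lists only, of ranks 10337 in replicate 2 and 6753 in replicate 3.

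Among the genes of the Prp19 complex and the catalytic steps, 1 of 3 was bound. Prp19, which encodes a ubiquitin ligase, had signal 86.3 and rank 4420, near the end of the thresholded list, and ranked 5717 in replicate 2 and 3798 in replicate 3. Prp18, a second-step factor in yeast, had pooled rank 8970. Prp16, a helicase gene, had rank 11372, and its replicates were far apart, at 29047 in replicate 2 and 6967 in replicate 3.

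The bound spliceosome genes stood at divergent promoters. The TSS of another protein-coding gene lay within 1000 bp for 30 of the 33 members (90.9%), against 42.8% of all genes. For 29 members such a neighbour ran the opposite way from an upstream start. All 15 bound members were among these 29. Close neighbours and binding went together over the genome too, so the background depends on this arrangement. With a neighbour within 1000 bp, 15 of 30 members were bound (50%), against 41.3% of all such genes. With a divergent neighbour upstream, 15 of 29 were (51.7%, interval 32.5 to 70.6), against 46.1%. Of the 3 members with no close neighbour, SmF, Prp4k and snRNP-U1-70K, 0 were bound, against 14.4% of all such genes, and 0 of 3 allows a share of up to 70.8%. Set beside genes of like arrangement, the members' share was therefore near the background.

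**Figure D2:**
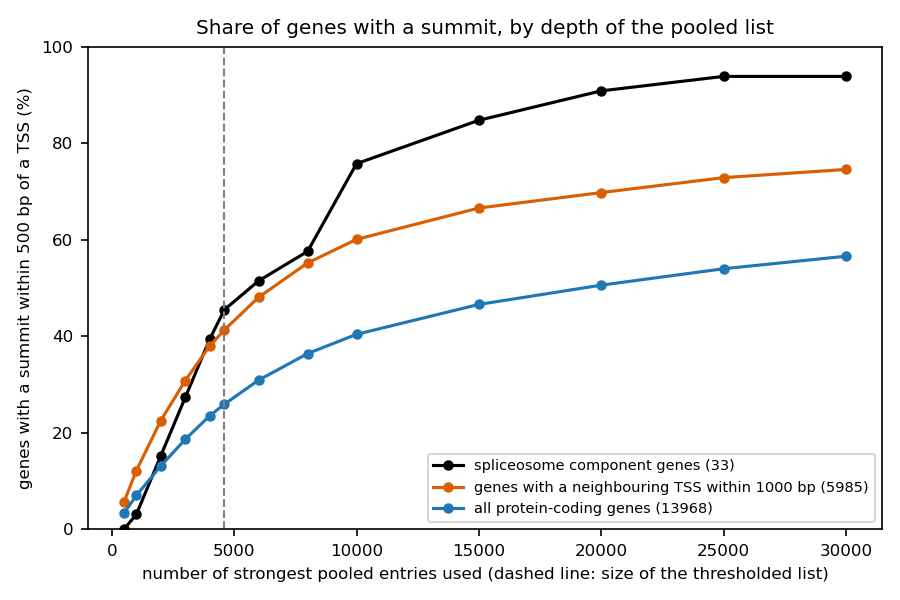
Percentage of genes with a summit within 500 bp of a TSS (y) against the number of strongest pooled entries used (x), for the 33 spliceosome component genes, for the 5985 genes with another gene's TSS within 1000 bp and for all 13968 protein-coding genes. Among the 1000 strongest entries the members stand at 3.03%, below 12.1% of genes with a neighbour and 6.97% of all genes, and among the 10000 strongest at 75.8%, above 60.1% and 40.4%.

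The members' share moved past that of all genes between the 1000 and the 2000 strongest pooled entries. Among the 1000 strongest pooled entries 1 of 33 members had a summit at a TSS (3.03%), against 6.97% of all genes, and among the 2000 strongest 5 had (15.2%, against 13.1%). Among the 10000 strongest 25 had (75.8%, against 40.4%). Of the genes with a close neighbour, 60.1% had a summit at that depth. The replicates differed along the way. Among the 2000 strongest entries, replicate 2 had 2 members (6.06%, against 12.9% of all genes) and replicate 3 had 7 (21.2%, against 13.4%). Among the 3000 strongest, replicate 2 had 7 members (21.2%), against 18.2% of all genes and 30.1% of those with a close neighbour. Replicate 3 had 11 there (33.3%), against 19% and 31.5%. The low share of members among the very strongest entries thus rests on few genes.

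The summits lay close to the members' start sites and on the upstream side. The median distance was 58 bp for the bound members and 97 bp for all bound genes, and 14 of 15 summits lay upstream (93.3%), against 79.7%. All 15 bound members had a divergent neighbour upstream, while 68.2% of all bound genes had any close neighbour. The values for all bound genes in this paragraph are thus not from genes of like arrangement. For 11 members the summit lay between the member's TSS and that of its divergent neighbour. No annotated exon of a protein-coding gene covered these 11 summits. The exceptions, in exons, were SmD2, U2af50 and snRNP-U1-C, with the summit past the neighbour's TSS, and Prp19, with the summit in its own transcript. Every one of the 15 summits was also within 500 bp of another gene's TSS, against 57.5% of the summits of all bound genes, so none can be assigned to the spliceosome gene alone. The nearest TSS was the member's own for 8 and the neighbour's for 7 (LSm1, Prp3, Prp40, Sf3b1, SmD2, U2af50 and snRNP-U1-C).

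**Figure D3:**
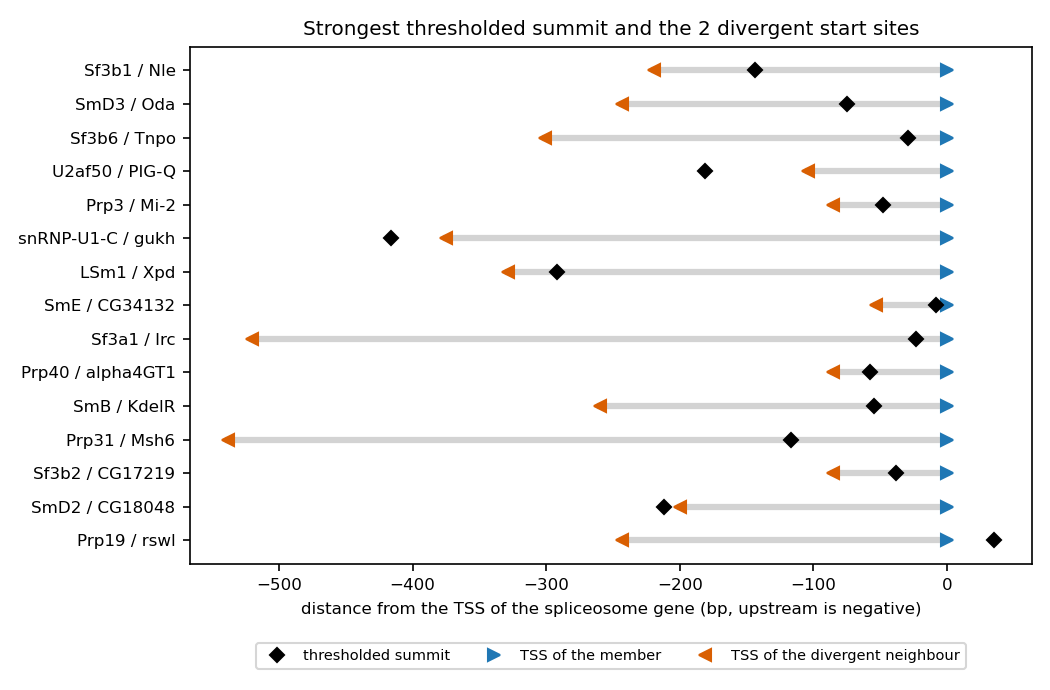
Position of the strongest thresholded summit (diamonds) at each of the 15 bound spliceosome genes, from the strongest at the top to the weakest, in bp from the member's TSS (triangles at 0), with upstream negative. Left-pointing triangles mark the TSS of the divergent neighbour named after the slash, and the summit lies between the 2 start sites for 11 of the 15.

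The neighbours that share these peaks had varied roles. Sf3b1 stood 219 bp from Nle, the gene of the Notchless protein, with the summit 144 bp from its own TSS and 75 bp from that of Nle. Prp3 and Mi-2, which encodes a nucleosome remodeller, started 85 bp apart. LSm1 started 329 bp from Xpd, a helicase subunit of TFIIH, and the summit was 37 bp from the TSS of Xpd and 292 bp from that of LSm1. Prp31 was paired with the mismatch repair gene Msh6 (538 bp), Sf3b6 with the nuclear import receptor gene Tnpo (301 bp), SmB with KdelR, a receptor for proteins of the endoplasmic reticulum (260 bp), SmD3 with Oda, an antizyme of ornithine decarboxylase (243 bp), and Sf3a1 with the catalase gene Irc (520 bp). In 2 cases the gap was as narrow as that of Prp3: Prp40 and alpha4GT1, and Sf3b2 and CG17219, each started 85 bp apart. SmE and CG34132 were closer still, at 53 bp. All 15 neighbours were bound by the same rule, which follows from sharing the summit and says nothing separate about them. The member's summit lay at most 497 bp from the neighbour's TSS, at Sf3a1. Of the 15 members that had a close neighbour but were not bound, 1 had a bound nearest neighbour, Prp39 with wdn, 765 bp away.

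Sequence between such start sites is shown for 5 bound members, chosen for the strongest peak (Sf3b1), for a match to a promoter element (Prp3, Sf3b6 and Sf3b2) or for its absence (Prp40), and for Prp6, the member with no entry in any list. Each is read from release 6 of the genome (dm6), 5′ to 3′ in the direction of the spliceosome gene. None of the sequences holds an annotated exon of a protein-coding gene. Capitals mark matches on either strand to the DRE (TATCGATA), the core of Motif 1 (GGTCACACT), an E-box (CAGCTG) or a forkhead site. The forkhead site is GTAAACA, or the same with AT, GC or AC in place of its first GT. The Prp3, Prp40 and Sf3b2 sequences are the whole gap between both genes. They lie at chr2L:568122-568296 (plus strand) for Sf3b1, chr3L:19910216-19910299 (plus) for Prp3, chr3L:6193180-6193308 (minus) for Sf3b6, chr2L:3029169-3029252 (minus) for Sf3b2, chr2L:3023142-3023225 (plus) for Prp40 and chr3L:18905222-18905371 (plus) for Prp6.
Sf3b1: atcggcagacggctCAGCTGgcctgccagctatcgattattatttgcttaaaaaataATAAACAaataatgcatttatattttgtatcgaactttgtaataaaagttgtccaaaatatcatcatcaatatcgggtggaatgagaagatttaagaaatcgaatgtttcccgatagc
Prp3: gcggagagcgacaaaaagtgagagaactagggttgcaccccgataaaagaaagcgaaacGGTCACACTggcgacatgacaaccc
Sf3b6: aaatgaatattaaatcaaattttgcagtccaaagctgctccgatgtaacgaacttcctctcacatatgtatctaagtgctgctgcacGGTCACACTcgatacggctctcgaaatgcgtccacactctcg
Sf3b2: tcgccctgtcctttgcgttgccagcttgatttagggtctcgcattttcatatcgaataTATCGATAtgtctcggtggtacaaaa
Prp40: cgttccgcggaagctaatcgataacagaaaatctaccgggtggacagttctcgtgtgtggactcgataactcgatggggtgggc
Prp6: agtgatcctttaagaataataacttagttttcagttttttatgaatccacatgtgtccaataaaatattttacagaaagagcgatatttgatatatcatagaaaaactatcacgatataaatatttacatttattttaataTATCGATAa

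In the Sf3b1 gap the forkhead match and the E-box lay on the side of Nle, centred 14 bp and 57 bp upstream of the summit. The promoter of Sf3b1 also held a Motif 1 core, outside the printed stretch. The narrow gap of Prp3 and Mi-2 held the Motif 1 core on the side of Prp3, and that of Sf3b2 and CG17219 a DRE. The gap of Prp40, also bound, held no match to any of these strings. Prp6 had a DRE next to its TSS and no summit.

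Over all promoters the members were richer in 2 promoter elements of housekeeping genes. The DRE, read by the DREF protein, and the core of Motif 1, read by M1BP, were searched on both strands from 250 bp before to 50 bp after the TSS of each gene's canonical transcript. The DRE stood in 8 of 33 members (24.2%), against 8.95% of 13968 genes, and the Motif 1 core in 8 (24.2%), against 5.86%. No member had both, so 16 had one or the other (48.5%), against 14.1% of all genes. Bound and unbound members were alike in this: 8 of the 15 bound and 8 of the 18 others held one of these elements. For U2af50 the summit was not within 500 bp of the canonical TSS, so the promoter searched was not the one called bound. The DRE was found at SmB, SmE, Sf3b2 and snRNP-U1-C among the bound members and at Prp6, Prp39, Sf3b3 and U2af38 among the others. The Motif 1 core was found at SmD2, Sf3b1, Sf3b6 and Prp3 among the bound members and at SmF, Sf3a2, Prp18 and snRNP-U1-70K among the others. Forkhead strings were near the background, in 12 members (36.4%), against 35.3%, while GAGAG runs were fewer, in 4 (12.1%), against 30.2%. The strings CAGCTG (18.2% against 17.9%) and GACGC (24.2% against 22.9%) were near the background. These shares were not tested. They were set against all promoters and not against those of genes with a close neighbour. For members such as SmE, Sf3b2 and Prp40, whose neighbour started within 250 bp, the window also covered the neighbour's start. A match there cannot be assigned to the spliceosome gene alone.

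**Figure D4:**
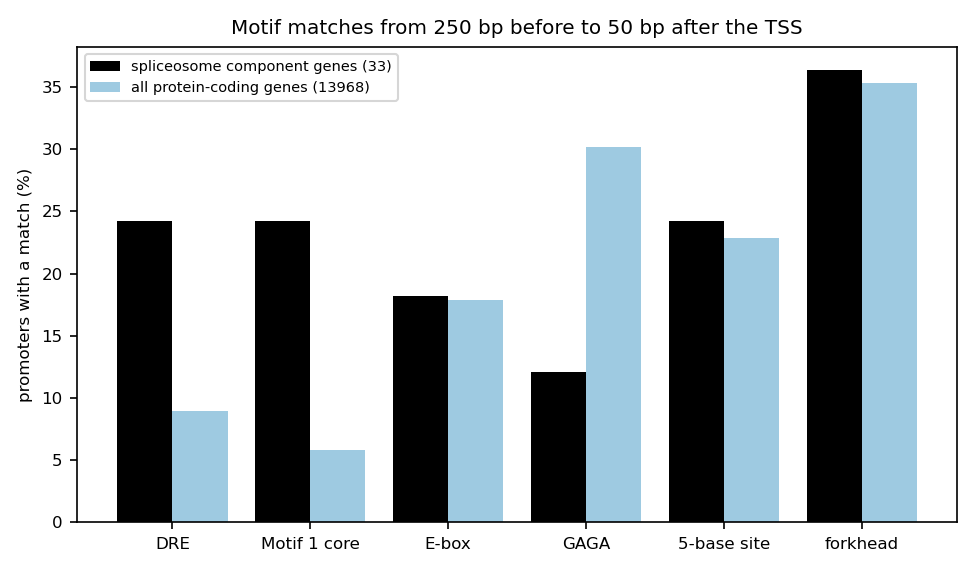
Percentage of promoters with a match on either strand to each motif (y), for the 33 spliceosome component genes (black) and all 13968 protein-coding genes (blue); the 5-base site is GACGC. The DRE and the Motif 1 core stand at 24.2% each in the members, against 8.95% and 5.86%, and the forkhead strings at 36.4%, against 35.3%.

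Within 100 bp of the summits the counts were small. The Motif 1 core stood in 3 of 15 members' windows (20%), against 6.67% of the 2895 thresholded summits within 500 bp of a TSS, and the DRE in 2 (13.3%), against 10.4%. A forkhead string stood in 6 (40%), against 27.9%, at Sf3b1, SmD3, SmD2, SmB, Prp31 and Prp19. The direction of the forkhead difference depended on the window: within 250 bp the members stayed at 6 (40%), against 56.3% of the summits. Windows of LSm1, Prp40 and Sf3a1 held none of the 6 motifs within 100 bp.

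Other splicing genes were taken from a list of names. The bound share was 45.5% of the spliceosome members, 51% of these others (25 of 49) and 25.9% of all genes. Among genes with a close neighbour it was 50% of the members, 52.6% of the others (20 of 38) and 41.3% of all genes. Without a close neighbour, 0 of 3 members were bound and 5 of 11 others (45.5%), against 14.4% of all such genes. These differences were not tested. Bound genes numbered 11 of 20 for further snRNP, Prp19 complex and catalytic step proteins, 5 of 11 for SR and SR-like proteins, 2 of 4 for the exon junction complex and 7 of 14 for hnRNPs and related regulators. The strongest peaks were at glo, an hnRNP gene (signal 295, rank 430), SF2, an SR protein gene (253, rank 596), fl(2)d (222, rank 786), Srrm1 (214, rank 849), Dhx15 (204, rank 946), BCAS2 (195, rank 1045), vir (175, rank 1326) and Slu7 (160, rank 1533). The products of fl(2)d and vir act in the methyltransferase complex that also sets Sxl splicing, and those of Dhx15, BCAS2 and Slu7 in the spliceosome. Of the SF3a complex, noi, which encodes its remaining subunit and was named here after its value was seen, was bound with signal 85.9 and rank 4463. Sf3a1 and noi were thus bound, and Sf3a2 was just below the list.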

How the data were processed

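ChIP-seq of GFP-tagged CHES-1-like was analysed from 4 deposited peak lists on dm6 (thresholded, pooled, replicate 2, replicate 3). Per the file manifests, the authors called peaks against a control library, and the thresholded list comes from irreproducible discovery rate filtering. For the aligner, the caller and the limit, nothing is given in the sources used here. Per the labels' protocols, chromatin was sonicated. The deposited signal per peak has no stated unit, the deposited q-value is given as −log10, and the summit is the offset that the authors list as a whole number. The lists on dm3, 4 in number, were not used, and the control library was not analysed here. Depth is unknown.

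Summits were assigned to genes within 500 bp of any TSS of Ensembl release 115. A neighbour is the TSS of another protein-coding gene within 1000 bp, and a replicate match a summit within 100 bp. Start sites and exons of other gene types were not used. Shares have 95% Clopper-Pearson intervals. Sequence and motifs were read from the release 6 genome. Python 3.11.15, numpy 2.4.6, scipy 1.17.1 and matplotlib 3.10.9 were used, and the counting was tested on simulated data. Every member is named, and of the other splicing genes the 8 strongest. Members, gene lists and motifs were chosen with earlier results of these data known. Alternatives changed the windows, list, start sites and replicates.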

Additional observations from a re-analysis of the deposited data

How the results depend on the processing

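No paired analysis was possible because the study has 1 group. The 15 bound members became 8 (24.2%, against 19.3% of all genes) where each summit was given to its nearest TSS alone, and 5 (15.2%, against 15%) with the stronger 2299 summits of the list, where all bound genes numbered 2089. The bound members became 23 (69.7%, against 38.6% of all genes) with pooled entries of q-value under 0.05. The nearest-TSS rule and the stronger list thus brought the members' share close to that of all genes. Leaving out a replicate, and taking as many best entries of the other, gave 13 to 15 members and 3525 to 3659 genes. Without replicate 3, Prp19 and Prp31 were lost, and without replicate 2, SmD2 was lost and Sf3a2 gained. A TSS window of 250 bp gave 13 members (39.4%, against 22.1% of all genes), without LSm1 and snRNP-U1-C. One of 1000 bp gave 16 (48.5%, against 28.9%), with Prp39. With 1 TSS per gene 14 were bound (42.4%, against 23.4% of all genes), without U2af50. Leaving out LSm1, whose protein acts in mRNA decay, left 14 of 32 (43.8%). The E-box share of the members' summit windows, 20%, became 0% within 50 bp, against 7.67% of all promoter summits. Within 250 bp, 3 motifs that were more frequent in the members' windows at 100 bp were less frequent: forkhead (40% against 56.3%), E-box (20% against 31.6%) and GACGC (40% against 44%). The restriction to genes with a close neighbour (15 of 30 members, 50%, against 41.3%) was chosen after seeing the data.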

Other observations

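Within the gene bodies, beyond 500 bp of a TSS, 32 of the 33 spliceosome genes (97%) held no thresholded summit, against 93.8% of all protein-coding genes. The exception was Prp16, with 2 summits of ranks 2654 and 4150, the nearer 1321 bp from its TSS. Prp39 had its nearest summit 914 bp from its TSS (signal 111, rank 2989). Of the members not bound, Sf3b5 had a bound gene nearby, Kcmf1, whose TSS was 432 bp away.

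The bound members were spread over all large chromosome arms, with 5 of 9 on 2L, 3 of 6 on 2R, 3 of 8 on 3L, 3 of 7 on 3R and 1 of 3 on X. Among all genes 24.7% were bound on 2L, 26.5% on 2R, 27.2% on 3L, 27.9% on 3R and 22.9% on X. Bound members had a median gene length of 2039 bp and unbound members 1865 bp, against 3076 bp for all bound genes and 2164 bp for all genes. The gap to the nearest neighbouring TSS had a median of 243 bp in bound members and 441 bp in unbound members with such a neighbour. Among genes with such a neighbour it was 242 bp for all bound genes and 290 bp for all genes.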
